A study of Mus musculus with 20 samples.

Results

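The cells described here are the mural cells of the basolateral amygdala (BLA), that is, pericytes and vascular smooth muscle cells, picked out of single-cell RNA-seq libraries by their own transcripts. A barcode was kept where at most 12.5% of its unique molecular identifiers (UMIs, each standing for 1 captured transcript) were mitochondrial and at least 200 genes were detected. A kept barcode was a member where the summed UMIs of Vtn, Kcnj8, Abcc9, Atp13a5, Higd1b, Ndufa4l2, Acta2, Tagln and Myl9 came to at least 4 and those of 12 genes of other cell types (Cldn5, Flt1, Cx3cr1, C1qa, Gja1, Aqp4, Mog, Mag, Pdgfra, Dcn, Slc17a7 and Gad1) to at most 2. This rule found 176 members among 5908 kept barcodes of 9 libraries, or 2.98%. The members, and the genes that set them apart from other cells, are therefore a description of the rule and carry no test.

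The study asked what chronic corticosterone and a single dose of ketamine do to the cells of the mouse BLA. All mice were wild-type C57BL/6 males of 13 weeks, and each library came from the BLA of 1 mouse. Mice drank 2-hydroxypropyl cyclodextrin (BCD, the vehicle) or corticosterone (CORT) at 35 µg/ml for 6 weeks, and were injected intraperitoneally with saline (Sal) or ketamine (Ket) at 10 mg/kg 24 h before collection. Members came from BCD/Sal mice 9901 and 9947 (n = 2), BCD/Ket mice 9946, 9949 and 9986 (n = 3), CORT/Sal mouse 9969 (n = 1) and CORT/Ket mice 9967, 9968 and 9971 (n = 3). A further CORT/Sal library (9970), which the rule left out, held 0 members among 2397 kept barcodes, which allows a share of up to 0.125% (3 counts). Corticosterone in drinking water models raised glucocorticoid exposure, and nothing in the design labels vessels or the mural lineage, so vessel type was known only from transcripts.

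Mural cells wrap the endothelial tube of a vessel. Pericytes sit inside the basement membrane of capillaries, are held there by platelet-derived growth factor signalling from the endothelium, and take part in keeping the blood-brain barrier, whereas smooth muscle cells ring arteries and arterioles and contract to set blood flow. In the brain both express the receptor Pdgfrb and the regulator of G-protein signalling Rgs5, but ATP-sensitive potassium channels built from Kcnj8 and Abcc9 mark pericytes and the contractile apparatus of smooth muscle actin (Acta2) and transgelin (Tagln) marks smooth muscle.

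The gene pairs that mark the kinds of mural cell also differ in where they lie. Kcnj8, which encodes the pore of an ATP-sensitive potassium channel, lies at chr6:142513459-142519876 on the minus strand of NCBIM37 (mm9). Abcc9, the sulfonylurea receptor subunit that assembles with that pore, lies at chr6:142536382-142650794 on the same strand, 16.5 kb from it. Acta2 lies at chr19:34315580-34329826 and Tagln at chr9:45737711-45744141, both on the minus strand, and Vtn (vitronectin, a secreted matrix protein) lies at chr11:78312593-78315826 on the plus strand. All are protein-coding genes.

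The 250 bases upstream of the start of 4 genes of the rule are shown because Acta2 and Myl9, the regulatory light chain of myosin, stand for the contractile side of the members and Kcnj8 and Abcc9 for the other. They were taken from RefSeq on GRCm38.p6 (chr19:34255374-34255623 minus for Acta2, chr2:156775214-156775463 plus for Myl9, chr6:142571615-142571864 minus for Kcnj8 and chr6:142702275-142702524 minus for Abcc9), a later build than that of the gene positions above. Capitals mark matches to the CArG box, the binding motif of serum response factor, with at most 1 G or C in its A/T core, on either strand.
Acta2: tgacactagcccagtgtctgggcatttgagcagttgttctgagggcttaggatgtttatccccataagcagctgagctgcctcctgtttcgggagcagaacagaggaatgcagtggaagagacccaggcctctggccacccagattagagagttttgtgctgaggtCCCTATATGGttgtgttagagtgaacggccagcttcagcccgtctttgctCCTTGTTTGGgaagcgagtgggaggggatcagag
Myl9: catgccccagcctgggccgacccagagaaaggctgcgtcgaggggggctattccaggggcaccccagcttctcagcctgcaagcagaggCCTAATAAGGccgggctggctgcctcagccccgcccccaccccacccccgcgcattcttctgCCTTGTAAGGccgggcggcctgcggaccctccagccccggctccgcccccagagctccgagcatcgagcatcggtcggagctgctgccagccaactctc
Kcnj8: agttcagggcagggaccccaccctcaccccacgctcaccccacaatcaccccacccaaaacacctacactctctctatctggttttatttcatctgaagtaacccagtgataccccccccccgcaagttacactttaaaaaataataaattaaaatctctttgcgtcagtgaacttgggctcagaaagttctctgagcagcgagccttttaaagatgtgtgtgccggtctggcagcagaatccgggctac
Abcc9: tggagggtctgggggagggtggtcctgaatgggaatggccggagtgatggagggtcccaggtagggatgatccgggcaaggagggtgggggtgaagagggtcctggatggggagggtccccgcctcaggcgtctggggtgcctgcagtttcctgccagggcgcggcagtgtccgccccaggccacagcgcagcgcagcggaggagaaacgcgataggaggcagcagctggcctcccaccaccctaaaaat
The matches in Acta2 begin 84 and 34 bases before the start, and those in Myl9 begin 161 and 99 bases before it. The windows of Kcnj8 and Abcc9 held none, and neither did those of Cnn1, Lmod1, Pln, Atp13a5 and Vtn. Such a match is a description of the letters and not a bound site. Among all 27025 genes with a window, 9.78% held at least 1 match of this kind.

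Members were found in every one of the 9 libraries but their number was uneven. BCD/Sal 9901 gave 33, BCD/Ket 9949 and 9986 gave 25 and 26, CORT/Sal 9969 gave 29, and CORT/Ket 9968 and 9971 gave 23 and 30. BCD/Ket 9946 gave 7, CORT/Ket 9967 gave 2 and BCD/Sal 9947 gave 1, so 7 libraries with at least 5 members held 173 of them. The 3 libraries with the fewest members were also the shallowest, and library totals ran from 811628 UMIs in CORT/Ket 9967 to 7281768 in CORT/Sal 9969. A member held a median of 1165.5 UMIs (from 347 to 6465) and 779 genes, and all members together held 266235 UMIs. Of the 45 pairs among all 10 libraries, 9970 included, none shared the barcode of a member in both, and at most 20 barcodes were shared by a pair, 0.810% of the smaller library.

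The members were chosen by these UMI sums, so the values on either side of the limits are given as a description of the rule. Among kept barcodes with at most 2 UMIs of the other cell types, 1578 held 0 mural UMIs, 28 held 1, 5 held 2, 2 held 3, 0 held 4 and 4 held 5, while the median member held 30 and the highest 267. Of the members, 142 had 0 such UMIs, 23 had 1 and 11 had 2, and 8 barcodes just outside had 3. The 11 just inside held Pdgfrb at 2488 and Rgs5 at 5708 CPM, and the 8 just outside held 1087 and 4502 (all levels here are CPM, or UMIs per 1000000 UMIs of the cells pooled).

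The label was checked on mural markers that the rule did not use. Rgs5 was detected in 161 of 176 members, Pdgfrb in 139, the pericyte proteoglycan Cspg4 (NG2) in 115, the Notch receptor Notch3 in 108 and smooth muscle myosin heavy chain (Myh11) in 36. The corresponding shares were 91.5%, 79.0%, 65.3%, 61.4% and 20.5%. In 910 endothelial barcodes, cells of the same vessels that should lack these transcripts, they were 27.7%, 1.43%, 0.220%, 0.879% and 0.879%, at a median of 1360.5 UMIs per barcode against 1165.5 in members. Rgs5 was thus the marker with the most signal in endothelial barcodes. These barcodes were chosen to hold at most 2 UMIs of the mural genes of the rule and of other cell types together. Their low shares are therefore partly set by that choice.

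Across the 7 libraries, Rgs5 had a lowest level of 3552, a median of 5754 and a highest of 8260 CPM. Pdgfrb ranged from 323 in BCD/Ket 9946, where it rested on 1 UMI, through a median of 1659 to 2380. Cspg4 varied least of these markers, from 826 to 1007. Myh11 varied more, from 401 in CORT/Ket 9968 to 2198 in CORT/Sal 9969, the libraries with the lowest and the highest share of Acta2 cells described below.

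Markers of other cells were scarce. The 7 endothelial markers summed to 184 CPM in members against 22528 in endothelial barcodes; Flt1 was the most abundant with 26 UMIs, and Cdh5 was at 0. The 6 microglial markers summed to 26.3, with Cx3cr1, P2ry12, Ctss and Csf1r at 0. The 5 oligodendrocyte markers summed to 150 (Mbp 19 UMIs, Mag 0), the 4 precursor markers to 22.5 (Cspg5 3 UMIs, Pdgfra and Matn4 0) and the 5 fibroblast markers to 124 (Slc6a13, a GABA transporter that pericytes also express, 27 UMIs, Lum and Col1a1 0). The 5 astrocyte markers summed to 398 against 5307 in all other kept barcodes, mostly the glutamate transporter Slc1a2 (59 UMIs), and no haemoglobin UMI was seen in any member. The 5 neuronal markers reached 1337 against 9756, but 330 of their 356 UMIs were the long non-coding RNA Meg3, present in members of 6 of the 7 libraries with at least 5 members, and Gad1 was at 0. Slc17a7, Gad1, Mag and the other genes of the exclusion list were limited by the rule itself.

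Beyond the markers, many genes were higher in the members than in the 4822 other kept barcodes. Of 840 genes with at least 50 UMIs in members, 231 (27.5%) were at least 2-fold higher in the pooled cells and higher in each of the 7 libraries, and 182 (21.7%) met the same terms against endothelial barcodes. Outside the rule, and whether or not they met those terms, genes with pooled ratios among the largest included Tpm2 (smooth muscle beta-tropomyosin, 72.7-fold) and Aspn (asporin, a small matrix proteoglycan, 72.0-fold). Others were Tbx3os1, Pln, Myh11, Art3, the T-box factor Tbx2, the amino acid transporter Slc38a11, Gm13861, the forkhead factor Foxs1, the sphingosine-1-phosphate receptor S1pr3, the smooth muscle long non-coding RNA Carmn, the lung-type cytochrome oxidase subunit Cox4i2 and the proline transporter Slc6a20a, at 47.3-fold for the last. Of these, Tpm2, Pln, Art3, Tbx2, Gm13861, Foxs1 and Cox4i2 were higher in members in 6 of the 7 libraries, and the rest in 7. The other kept barcodes included 184 that themselves held at least 4 mural UMIs beside more than 2 UMIs of other cell types.

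The members fell into sides along the genes of the rule. A cell was put on the Kcnj8 side where its Kcnj8, Abcc9 and Atp13a5 UMIs came to at least 2 and exceeded those of Acta2 and Tagln, and on the Acta2 side in the reverse case. There were 136 cells on the Kcnj8 side, 27 on the Acta2 side and 13 on neither. UMIs of both sides were present in 11 of the 176 members. The split itself partly sets this low number, since a cell had to hold more UMIs of its own side. Of the Kcnj8-side cells, 134 had 0 UMIs of Acta2 and Tagln, and 20 of the 27 Acta2-side cells had 0 UMIs of Kcnj8, Abcc9 and Atp13a5. A cell lay at the cut, with exactly 2 UMIs on its side, in 23 cases. Acta2-side cells held more RNA, with a median of 2182 UMIs against 1118.5.

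What else differed between the sides was read within mice, in the 5 mice with at least 3 cells of each (BCD/Sal 9901, BCD/Ket 9949 and 9986, CORT/Sal 9969 and CORT/Ket 9971), and is a description because the cells were split by their own transcripts. A gene leaned to a side where all 5 mice had it higher there and the pooled cells differed at least 2-fold. Of 2524 genes with at least 20 UMIs, 281 leaned to the Kcnj8 side (11.1%) and 162 to the Acta2 side (6.42%). The median gene had a log2 ratio (Kcnj8 side over Acta2 side) of 0.22. A ratio against a side with 0 UMIs is given below as a lower bound at 3 counts over the side, and intervals are 95% and cover counting error only.

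The contractile genes outside the rule were the list furthest toward the Acta2 side. Of 25 with at least 20 UMIs, 19 leaned there and 0 the other way, beside 6.42% and 11.1% of all genes. The median log2 ratio of the 25 was -3.28. Myh11 was at 8521, 3229, 6343, 4781 and 5603 CPM in Acta2-side cells of 9901, 9949, 9986, 9969 and 9971, and at 207, 90.4, 0, 115 and 50.6 in Kcnj8-side cells of the same mice. The groups of values were far apart in each mouse, and the pooled ratio was 59.5-fold (interval 36.1 to 105). Pln (phospholamban, which restrains the calcium pump of the sarcoplasmic reticulum) had 62 UMIs on the Acta2 side and 0 on the Kcnj8 side, at least 56.0-fold. Cnn1 (calponin, an actin-binding brake on contraction) had 43 against 0, at least 38.8-fold, but 44.2% of its UMIs came from 1 cell. Tpm2 and Tpm1 (tropomyosins) were 20.3-fold and 9.37-fold higher, the filamin Flna 10.0-fold and myosin light chain kinase (Mylk), which triggers contraction by phosphorylating the light chain, 5.87-fold.

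Not all cytoskeletal genes separated the sides. Cald1 (caldesmon, which binds actin and tropomyosin) was at 4083 CPM in Kcnj8-side and 4409 in Acta2-side cells, a ratio of 1.08 (0.94 to 1.23), and it was higher on the Acta2 side in 3 of the 5 mice. Des, the muscle intermediate filament desmin, was 4.74-fold higher on the Acta2 side in the pooled cells without leaning there in every mouse.

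Other genes with the largest ratios toward the Acta2 side were Sncg (gamma-synuclein, at least 48.8-fold), Pdlim3 (a Z-disc adaptor, at least 24.4-fold), Sorbs2 (119 against 3 UMIs, ratio 108, interval 35.9 to 529), Csrp2 (42 against 1, ratio 114, 19.3 to 4601), Csrp1 (77.2-fold), Rcan2, Lmod1 (leiomodin, an actin nucleator), Tinagl1, Enah, Gsn, Palld and Nexn. CORT/Sal 9969, with 8 of the 27 Acta2-side cells, was the largest single source of UMIs for 13 of these 15 genes, counting Pln, Cnn1 and Myh11, and gave 74.1% of those of Pdlim3.

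**Figure D1:**
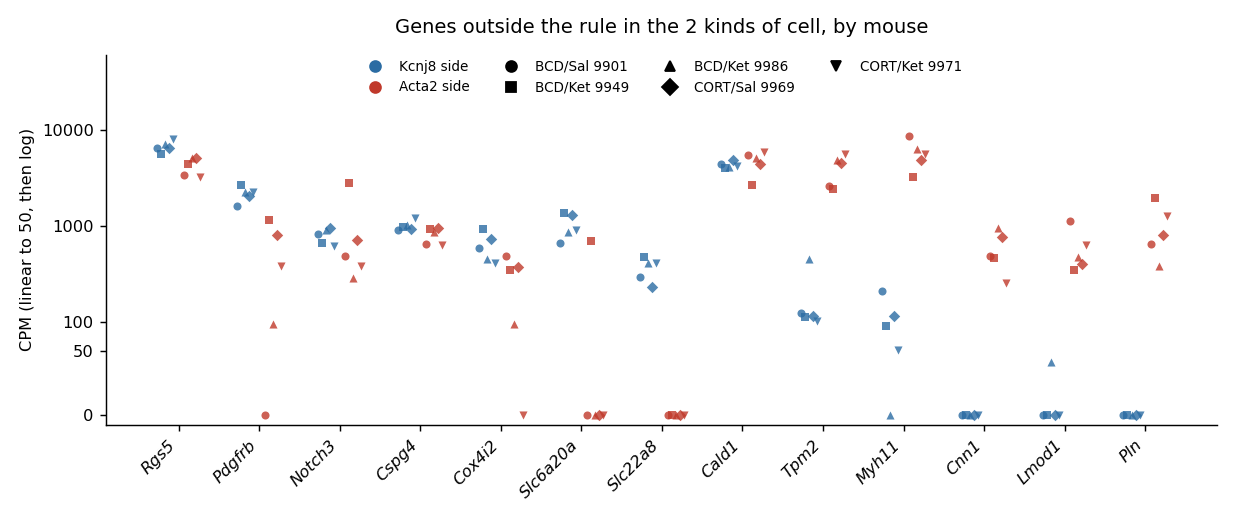
Levels (CPM, linear to 50 and logarithmic above) of 13 genes outside the rule in Kcnj8-side cells and Acta2-side cells, with 1 marker shape per mouse (5 mice). Cspg4 and Cald1 have overlapping values on the sides, Rgs5 is 1.52-fold higher on the Kcnj8 side in the pooled cells, Slc22a8 is at 0 in Acta2-side cells of all 5 mice, and Cnn1 and Pln are at 0 in Kcnj8-side cells of all 5.

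On the Kcnj8 side, pericyte genes outside the rule were the counterpart. Of 25, 12 leaned to the Kcnj8 side and 1 (Mcam, the adhesion molecule CD146, 3.23-fold) to the Acta2 side, beside 11.1% and 6.42% of all genes. The median log2 ratio of the 25 was 1.10. Pdgfrb was at 1613, 2621, 2251, 2041 and 2227 CPM in Kcnj8-side cells of 9901, 9949, 9986, 9969 and 9971, and at 0, 1153, 94.7, 802 and 382 in their Acta2-side cells. It was higher on the Kcnj8 side in each mouse, 3.76-fold in the pooled cells (2.72 to 5.35). P2ry14, a receptor for UDP-sugars, was 6.72-fold higher, the parathyroid hormone receptor Pth1r 5.06-fold, Art3 4.63-fold and Cox4i2 2.34-fold. Rgs5 was 1.52-fold higher (1.34 to 1.73) and Cspg4 1.18-fold (0.87 to 1.62), whereas Notch3 (ratio 1.01, 0.74 to 1.38) and Foxs1 (1.07-fold toward the Acta2 side, 0.55 to 1.99) were at nearly the same level on both.

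Vtn, Higd1b and Ndufa4l2 set neither side, but their UMIs counted toward the rule, and a cell with only 2 or 3 UMIs of the genes that set the sides could become a member only through such genes. Their levels are therefore partly fixed by the choice of cells. Vtn was at 9925, 24876, 16450, 18338 and 12908 CPM in Kcnj8-side cells of the 5 mice in the same order, and at 482, 4497, 1704, 736 and 1146 in Acta2-side cells. The lowest Kcnj8-side value was above the highest Acta2-side value, and the pooled ratio was 10.9-fold. Higd1b and Ndufa4l2, mitochondrial proteins induced by hypoxia in other tissues, were 4.56-fold and 3.68-fold higher on the Kcnj8 side. In the 97 Kcnj8-side and 25 Acta2-side cells with at least 4 UMIs of the genes that set the sides, which the rule would have taken without the others, the ratios were 15.02 for Vtn (12.1 to 18.8), 4.63 for Higd1b (3.18 to 6.97) and 4.398 for Ndufa4l2 (2.96 to 6.80). Vtn was detected in 97 and 12 of these cells.

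Among the lists with more than 1 gene of at least 20 UMIs, membrane transporters had the largest median toward the Kcnj8 side, a log2 ratio of 3.88 over 8 genes. Of these, 5 leaned there and 0 the other way, beside 11.1% and 6.42% of all genes. Slc22a8 (organic anion transporter 3) had 69 UMIs against 0, at least 8.49-fold. Slc6a20a was at 662, 1356, 859, 1293 and 911 CPM in Kcnj8-side cells of 9901, 9949, 9986, 9969 and 9971 and at 0, 692, 0, 0 and 0 in Acta2-side cells, 10.9-fold in all. The sodium-potassium-chloride cotransporter Slc12a2 was 6.23-fold and the reduced folate carrier Slc19a1 2.82-fold higher, and the manganese exporter Slc30a10 had 70 UMIs against 1 (ratio 25.8, 4.49 to 1035). Slc38a11 was among the transporters that did not separate the sides (log2 ratio 0.26). A further 6 transporters of the list were at 0 in all members, among them Slc16a1 and Slc39a8, which were at 625 and 138 CPM in endothelial barcodes.

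Of 14 channel and calcium genes, 4 leaned to the Kcnj8 side, 2 to the Acta2 side and 8 to neither, beside 11.1% and 6.42% of all genes leaning to the Kcnj8 and Acta2 sides, so that the count toward the Acta2 side was near that of all genes. Atp2a3 (SERCA3) leaned to the Kcnj8 side at 5.76-fold, and Atp2a2 (SERCA2, the pump that phospholamban restrains) and the plasma membrane pump Atp2b4 leaned to the Acta2 side. Itpr2, an inositol trisphosphate receptor, leaned to the Kcnj8 side while its relative Itpr1 did not lean (ratio 1.11, 0.66 to 1.94).

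Of 14 receptors and enzymes that set vessel tone, 3 leaned to the Kcnj8 side (P2ry14, Pth1r and S1pr3, the last 3.53-fold), 2 to the Acta2 side and 9 to neither. Both counts were within a gene or so of the shares of all genes (11.1% and 6.42%), so nothing is read from them about the list. These 2 were Pde3a, which breaks down cyclic AMP and is inhibited by cyclic GMP (13.3-fold), and Npy1r, the receptor through which neuropeptide Y constricts vessels (2.87-fold, 1.40 to 5.93). The endothelin receptor Ednra was at 273 CPM on the Kcnj8 side and 261 on the Acta2 side. The subunits of the nitric oxide receptor, Gucy1a1 (ratio 1.13, 0.77 to 1.69) and Gucy1b1 (1.70-fold, 1.16 to 2.56), leaned to neither. Of 40 genes of this list in the files, 7 were at 0 in all members, among them the angiotensin receptor Agtr1a and the adrenoceptors Adra1b and Adra1d.

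Genes for signals exchanged with the endothelium had a median log2 ratio of 1.23. Of 20, 9 leaned to the Kcnj8 side and 0 to the Acta2 side, beside 11.1% and 6.42% of all genes. Besides Pdgfrb and S1pr3 the 9 included Notch1 (4.35-fold), the Notch targets Heyl (2.18-fold) and Hes1, Cdh2 (N-cadherin, which joins pericytes to endothelium), Tgfb1 and the chemokine Cxcl12 (62 against 3 UMIs, ratio 7.63, 2.49 to 38.0). The gap junction gene Gja4 leaned to neither (ratio 1.30, 0.75 to 2.38). Ligands made by endothelium were low in members. Pdgfb had 4 UMIs in all members and Edn1 1, and they were at 364 and 353 CPM in endothelial barcodes.

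Basement membrane genes had a median near that of all genes (log2 ratio 0.22 over 22 genes). Of these, 7 leaned to the Kcnj8 side and 1 (Timp3) to the Acta2 side, beside 11.1% and 6.42% of all genes. The count toward the Acta2 side was thus near that of all genes. The 7 included the laminin chains Lama2 (56 against 3 UMIs, ratio 6.89, 2.24 to 34.4), Lama4 (2.21-fold, 0.85 to 7.31), Lamb1 (24 against 2 UMIs, ratio 4.43, 1.10 to 38.7), Lamc1 and Lamc3, the linker nidogen (Nid1, 3.20-fold) and biglycan (Bgn). The collagen IV chains Col4a1 (ratio 1.20, 0.82 to 1.81) and Col4a2 (1.08-fold toward the Acta2 side, 0.66 to 1.73) did not separate the sides. Igfbp7, the most abundant gene of the list, was at 3730 CPM on the Kcnj8 side and 3843 on the Acta2 side.

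**Figure D2:**
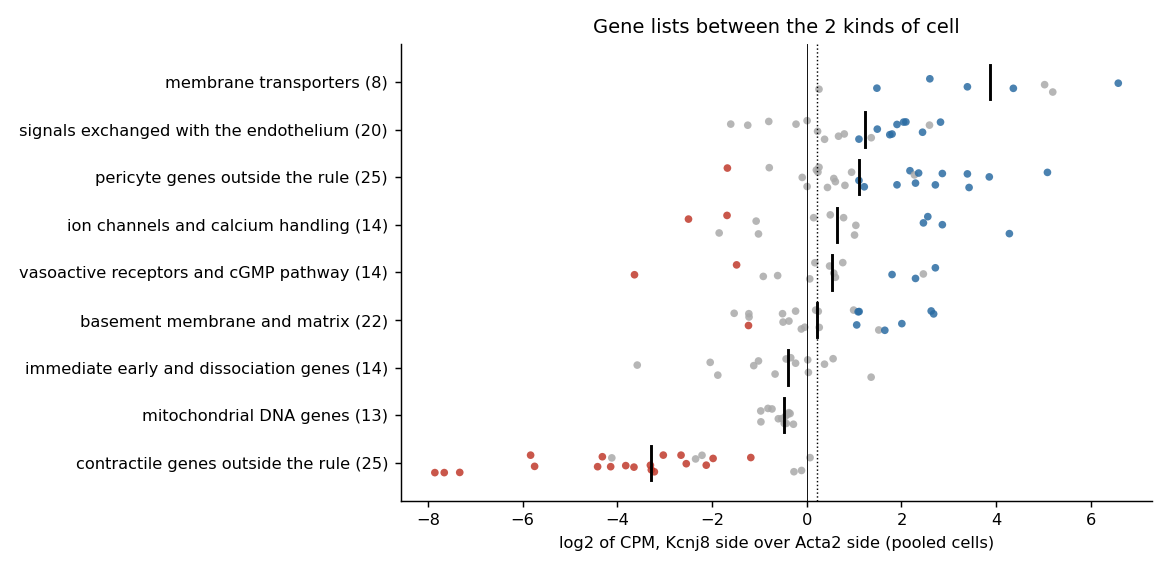
Each point is 1 gene with at least 20 UMIs, placed by the log2 ratio of its level in pooled Kcnj8-side cells over Acta2-side cells; colour marks genes that lean to a side in all 5 mice, grey those that do not, thick bars the median of each list, and the dotted line the median of all 2524 genes (0.22). Contractile genes lie to the left (median -3.28), and transporters (3.88), signals exchanged with the endothelium (1.23) and pericyte genes (1.10) to the right.

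The 15 genes with the largest log2 ratios toward the Kcnj8 side, computed with a prior of 0.5 UMI, all had 0 UMIs on the Acta2 side. Their order rests on that prior, and lower bounds of theirs lie under the measured ratios of Slc30a10, Nr1d1 and Slc6a20a given elsewhere. Spp1 (osteopontin, a secreted phosphoprotein) led with 160 UMIs, at least 19.7-fold, but these came from 32 of 136 cells and 21.2% from 1 cell. Ggt1 (gamma-glutamyl transferase, a long-known enzyme marker of brain vessels) had 65, Itih5 56, the neuropeptide gene Nts 48, Dcdc2a 43, Cthrc1 41, the TGF-beta family ligand Nodal 39 and the guidance cue Ntn1 38, the last at least 4.67-fold. The rest were Slc22a8, Mboat2, St8sia4, Slc9a3r1, Magt1, Oaf and Tmem86a. Of the neurotensin UMIs in members, 44.9% came from CORT/Ket 9968.

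A pair of cytochrome oxidase-associated subunits went opposite ways. Ndufa4 was at 82.7, 67.8, 0, 28.7 and 0 CPM in Kcnj8-side cells of 9901, 9949, 9986, 9969 and 9971 and at 322, 346, 663, 535 and 637 in Acta2-side cells, 14.3-fold higher (6.30 to 38.1). It was low on the Kcnj8 side in each mouse, where its relative Ndufa4l2 was high, and the values of the sides did not overlap. The 13 genes of mitochondrial DNA leaned to neither side, beside 11.1% and 6.42% of all genes leaning to the Kcnj8 and Acta2 sides. Their median log2 ratio was -0.47.

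None of the 14 immediate early and dissociation genes, 8 glucocorticoid-induced genes, 6 corticosteroid receptor and chaperone genes or 3 planar cell polarity genes with enough UMIs leaned either way. Of all genes, 11.1% leaned to the Kcnj8 side and 6.42% to the Acta2 side, so nothing is read from a 0 in lists this short. Of 12 inflammation and interferon genes, 2 (Cxcl12 and Ifitm1) leaned to the Kcnj8 side and 1 (Lgals1, galectin-1) to the Acta2 side. Both counts were near the same shares of all genes (11.1% and 6.42%), so nothing is read from them about the list. The 6 clock genes had a median log2 ratio of 2.89. Of them, 2 leaned to the Kcnj8 side and 0 to the Acta2 side, beside the same shares of all genes. The 2 were Nr1d1 (61 against 1 UMI, ratio 22.5, 3.89 to 903) and Dbp (64 against 3, ratio 7.87, 2.58 to 39.2). Meg3, the neuronal marker most present in members, was 4.01-fold higher on the Kcnj8 side.

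Acta2-side cells were not uniform. When they were parted by whether any Vtn UMI was present, a split chosen after their values were seen, 14 cells from 7 libraries had Vtn and 13 from 6 libraries had none. Cells with Vtn held 2 to 43 Acta2 and Tagln UMIs (median 13.5), and cells without it 5 to 221 (median 98), with median totals of 1802 and 3174 UMIs per cell. Rgs5 was at 11100 CPM in the former and 669 in the latter. Notch3 (1642 against 369) and Pdgfrb (1094 against 277) went the same way. Myh11 (1329 against 7310), Des (235 against 830) and vimentin (Vim, 860 against 3251) went the other way. Higd1b was at 1133 against 46.1. UMIs of Vtn, Higd1b, Acta2 and Tagln counted toward the rule, so their levels here are partly fixed by the choice of cells. Cnn1 was at 0 UMIs in cells with Vtn and 43 in cells without. Cald1 was again level at 4299 and 4474. Of the genes that set the Kcnj8 side, which the split into sides keeps low here, cells with Vtn held 7 UMIs of Atp13a5, 1 of Abcc9 and 0 of Kcnj8, and cells without it held 0 of each. Single cells weighed on these values. Of the 284 Rgs5 UMIs of cells with Vtn, 88 came from 1 cell of CORT/Sal 9969. Of their 117 Vtn UMIs, 29 came from 1 cell of BCD/Ket 9949. That cell lay at the cut of the sides, with 2 UMIs of Acta2 and Tagln and 0 of Myh11.

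The letters of the upstream windows can be set beside the sides. A CArG match with at most 1 G or C in its core was present in 23 of 131 genes leaning to the Acta2 side with a window (17.6%), in 22 of 209 leaning to the Kcnj8 side (10.5%), in 9.86% of genes with at least 20 UMIs and in 5 of 25 contractile genes outside the rule (20%). Strict matches were present in 3.82%, 0.957%, 1.55% and 8% of the same sets. These shares are descriptions and were not tested, and the absence of the letters from 250 bases says nothing of sites elsewhere.

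The number of members did not follow the treatments beyond the spread between mice. Their share of kept barcodes was 2.59% and 0.4% in BCD/Sal, 1.94%, 3.78% and 2.84% in BCD/Ket. It was 4.20% in the CORT/Sal mouse, and CORT/Ket mice had 1.48%, 3.70% and 2.99%. The exact (Clopper-Pearson) 95% interval ran from 1.79% to 3.62% for BCD/Sal 9901 and from 2.83% to 5.98% for CORT/Sal 9969. The ranges of the groups overlapped in every comparison. CORT mice averaged 3.10% ± 1.18 (SD, n = 4) and BCD mice 2.31% ± 1.26 (n = 5), with p = 0.381 in a two-sided exact permutation test, and ketamine mice 2.79% ± 0.927 (n = 6) and saline mice 2.40% ± 1.91 (n = 3), p = 0.667 (exact permutation test). CORT/Sal 9970, which kept 2397 of its 2469 barcodes against 690 of 3082 in CORT/Sal 9969, is not in these means. With its 0% counted, a setting chosen after seeing the data, CORT mice averaged 2.48% (n = 5) and saline mice 1.80% (n = 4), with p = 0.873 and 0.319 in the same exact permutation tests.

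Set against the endothelium of the same vessels, members numbered 24.8 and 2.5 per 100 endothelial barcodes in BCD/Sal, 6.36, 19.2 and 18.8 in BCD/Ket. The CORT/Sal mouse had 26.4, and CORT/Ket mice had 8.70, 26.4 and 21.6. Libraries with few members were low on this measure as well, and the groups again overlapped. The mean was 20.8 ± 8.36 (SD, n = 4) in CORT and 14.3 ± 9.46 (n = 5) in BCD mice (p = 0.294, exact permutation test). It was 16.9 ± 7.75 (n = 6) with ketamine and 17.9 ± 13.4 (n = 3) with saline (p = 0.869, exact permutation test).

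Acta2-side cells made up 12.9% and 0% of the cells put on a side in BCD/Sal, 20%, 12% and 20% in BCD/Ket. They made up 29.6% in the CORT/Sal mouse, and CORT/Ket mice 9968 and 9971 had 8.70% and 15.4%. The 0% rested on 1 cell, and CORT/Ket 9967 had no cell on either side. CORT/Sal 9969 was the highest library. The mean was 17.9% ± 10.7 (SD, n = 3) in CORT and 13.0% ± 8.19 (n = 5) in BCD mice (p = 0.482, exact permutation test), and 15.2% ± 4.97 (n = 5) with ketamine and 14.2% ± 14.9 (n = 3) with saline (p = 0.911, exact permutation test). Over all 12 tests of these 3 measures, which also included BCD/Ket against BCD/Sal and CORT/Ket against BCD/Ket, the Benjamini-Hochberg adjusted p-values of the exact permutation tests ran from 0.857 to 1. The comparisons of BCD/Ket with another single group could not have given a p below 0.1.

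**Figure D3:**
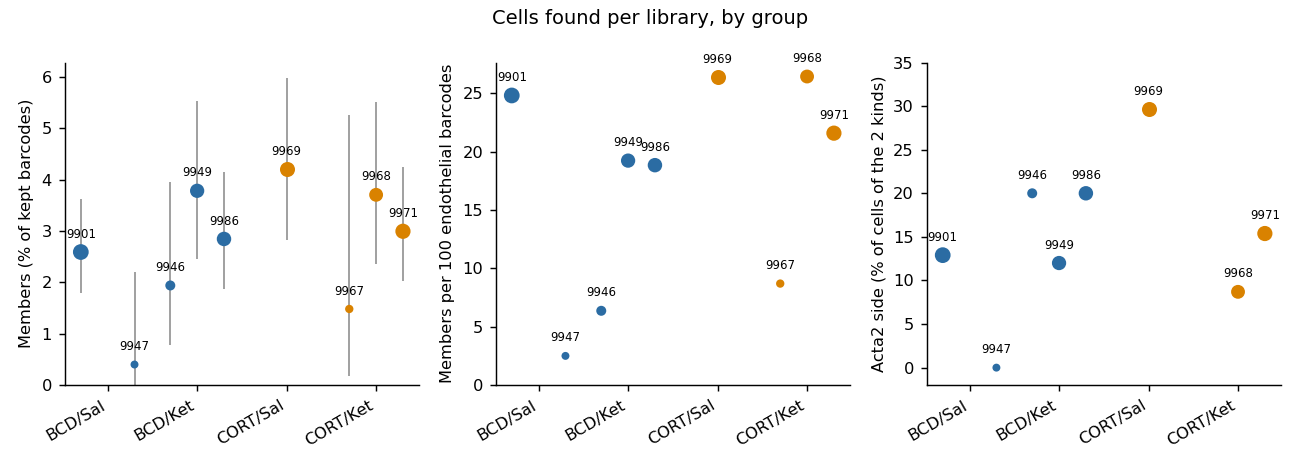
Members as a percentage of kept barcodes with exact 95% intervals (left), members per 100 endothelial barcodes (middle) and Acta2-side cells as a percentage of cells on either side (right), by group, with 1 point per mouse, labelled by its number and sized by its members. CORT/Sal has 1 mouse, at 4.20%, 26.4 and 29.6%, and the ranges of BCD and CORT mice overlap in all 3 panels.

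Gene expression in members was compared between treatments on UMI sums per mouse, with edgeR's quasi-likelihood test in the 7 libraries with at least 5 members. No gene passed an adjusted p of 0.05 in any comparison, so 0% of the genes tested were called, and DESeq2 called 0 in each as well. The 0 does not read alike in all 4 comparisons. Data were simulated with 4-fold changes in 200 genes and the same spread between mice (dispersion 0.1) for every gene. The same fit recovered 66.5% of the changed genes for ketamine against saline and 74% for CORT against BCD. It recovered 16% for CORT/Ket against BCD/Ket and none for BCD/Ket against BCD/Sal. Smaller changes and genes with a wider spread were not simulated, so nothing is said of how many of them would be found. For BCD/Ket (3 mice) against BCD/Sal (1 mouse, whose spread is assumed to be like that of the other groups) and CORT/Ket (2 mice) against BCD/Ket (3), 70 and 52 of 1635 genes had an unadjusted p under 0.05. For ketamine against saline (5 and 2 mice) and CORT against BCD (3 and 4), fitted with both factors, these were 14 and 40 of 835. The smallest adjusted p-values from edgeR were 0.0943, 0.860, 1.00 and 0.169 in that order. An interaction of drink and drug likewise gave 0 of 1635 genes by edgeR, with 82 at an unadjusted p under 0.05. The p-values measure the spread between these mice. The smallest adjusted p belonged to Snhg11, a long non-coding RNA named here after its values were seen, at 818 CPM in BCD/Sal 9901 and 0, 18.9 and 55.9 in the BCD/Ket mice (log2 fold change -4.57 ± 0.99 SE, edgeR). It passed an adjusted p of 0.05 by edgeR when BCD/Ket 9946, CORT/Ket 9968 or CORT/Ket 9971 was left out, with at least 10 members in a library and with at least 6 mural UMIs. Genes lower in BCD/Ket with no overlap made up 11.7% of those tested against that single mouse. Neuronal markers, summed in members, were also highest in BCD/Sal 9901, at 2893 CPM against 323, 775 and 1455 in BCD/Ket 9946, 9949 and 9986, and Meg3, the only one of the 5 with enough counts to test, had a log2 fold change of -1.77 ± 0.93 SE (adjusted p = 0.996, edgeR). Their part in the Snhg11 values was not tested.

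Of the 25 pericyte genes outside the rule, 23 were tested in each comparison, with 0 called by edgeR. For CORT against BCD, the pericyte genes had a median log2 fold change of 0.03 and the 16 contractile genes tested one of 0.18, beside 0.05 for all 835 genes. For ketamine against saline these were 0.07 and -0.48, beside -0.01. Myh11 was at 1824 and 2198 CPM in the saline mice 9901 and 9969, and at 646, 605, 1902, 401 and 1440 in the ketamine mice 9946, 9949, 9986, 9968 and 9971. The highest ketamine value lay between the saline values, and the log2 fold change of -1.03 ± 0.50 (SE) had an adjusted p of 1.00 by edgeR. Myh11 came mostly from the Acta2-side cells, whose share was highest in 9969. Its part in this difference was not tested.

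The glucocorticoid-induced list gave 2 genes to test for CORT against BCD and 5 for CORT/Ket against BCD/Ket, with 0 called. For BCD/Ket against BCD/Sal the 5 genes had a median log2 fold change of 2.90, beside 0.01 for all genes, again with 0 called and 2 (Cebpd and Cebpb) at an unadjusted p under 0.05 by edgeR. That median was the fitted value of Ctgf, and it is no bound because Cebpd, Cebpb and Ctgf were at 0 UMIs in BCD/Sal 9901, the only mouse of its group in the fit. Cebpd, a transcription factor of the C/EBP family, had 1, 11 and 3 UMIs in the members of BCD/Ket 9946, 9949 and 9986, and Cebpb had 1, 5 and 1. The list as a whole was low in members, at 1578 CPM summed over 32 genes against 4761 in endothelial barcodes, and Klf9 was its most abundant gene with 73 UMIs. Of corticosteroid receptor and chaperone genes 3 were tested for CORT against BCD, with 0 called, and Hsd11b1 and Hsd11b2, which convert corticosterone from and to its inactive form, were at 0 in members.

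The genes of the circadian clock had the largest shift of any list for CORT against BCD with more than 1 gene tested, again with 0 of 4 called: the median log2 fold change was -1.82, beside 0.05 for all genes. Nr1d1 (chr11:98629246-98636647, minus strand, NCBIM37), which encodes the repressor REV-ERB alpha of the clock loop, was at 346, 646, 472 and 280 CPM in BCD mice 9901, 9946, 9949 and 9986, and at 120, 118 and 62.6 in CORT mice 9969, 9968 and 9971. All CORT mice were below all BCD mice. Genes lower in CORT mice with no overlap made up 1.92% of those tested. The log2 fold change of Nr1d1 was -1.89 ± 0.51 (SE, edgeR), with an adjusted p of 0.178. Nr1d1 and Dbp leaned to the Kcnj8 side. The share of Acta2-side cells was 12.9%, 20%, 12% and 20% in the same BCD mice. It was 29.6%, 8.70% and 15.4% in the same CORT mice. In Kcnj8-side cells alone, Nr1d1 was at 455, 565 and 368 CPM in BCD mice 9901, 9949 and 9986 and at 201 and 101 in CORT mice 9969 and 9971. These are the mice in which the sides were compared. BCD/Ket 9946 and CORT/Ket 9968, with 4 and 21 Kcnj8-side cells but fewer than 3 Acta2-side cells, are not in these values. The 201 and 101 were taken over 34792 and 19756 UMIs of all genes, so they rest on few UMIs of Nr1d1. The part of the Acta2-side share in the Nr1d1 values was not tested.

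Dbp (chr7:52960458-52965525, plus strand, NCBIM37), a clock-driven transcription factor, was at 346, 0, 661 and 252 CPM in the same BCD mice and at 120, 70.8 and 31.3 in the CORT mice. The groups overlapped only through the 0 of BCD/Ket 9946, whose 7 members held 3097 UMIs in all. The log2 fold change was -2.36 ± 0.57 (SE, edgeR), with an adjusted p of 0.169. Hlf, a related factor, was at 660, 0, 246 and 503 in BCD and at 164, 118 and 125 in CORT mice, with a log2 fold change of -1.75 ± 0.49 and an adjusted p of 0.178 (edgeR). For CORT/Ket against BCD/Ket, which uses 5 of the same mice, 6 clock genes were tested with 0 called and a median log2 fold change of -1.72. Without BCD/Ket 9946, 2 genes passed an adjusted p of 0.05 in that comparison by edgeR, Dbp and Btg2.

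Summed over the 17 clock genes in the files, members had 2327, 2260, 2022 and 1874 CPM in BCD mice and 748, 708 and 814 in CORT mice. The groups did not overlap, and the BCD mean was 2.80 times the CORT mean. Of the 23 gene lists outside the rule, 2 had a summed level in CORT mice below that of all BCD mice, the clock genes and the ion channel and calcium genes, and 0 had one above it. The same sum was higher in BCD mice by 2.08 times in endothelial barcodes (848 to 1159 against 459 to 519) and by 1.28 times in all other kept barcodes (1056 to 1249 against 839 to 954). The summed level was thus lower in CORT mice in each class of cell, and whether its size differed between classes was not tested. Single genes did not all follow the sum. In members, the means of Clock (138 CPM in BCD, 201 in CORT mice), Cry1 (7.86 and 33.7), Npas2 (0 and 28.7) and Arntl (4.72 and 12.9), which encode other parts of the loop, were higher in CORT mice. So was the mean of Ciart (4.72 and 12.9). Clock overlapped between the drinks, at 28.0 to 323 in BCD and 142 to 313 in CORT mice. Cry1, Npas2, Arntl and Ciart were at 0 in some mice and at most 62.6 CPM in any, so their means rest on few UMIs. In endothelial barcodes Arntl averaged 5.86 CPM in BCD mice and 52.3 in CORT mice, without overlap. The hour of collection of each mouse was not given in the sources used here. Markers of astrocytes, summed in members, were at 755, 323, 1039 and 140 in BCD and at 44.9, 212 and 188 in CORT mice, with overlap, mainly through Slc1a2 (log2 fold change -2.44 ± 0.74, adjusted p = 0.386, edgeR). Their part in the clock values was not tested.

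**Figure D4:**
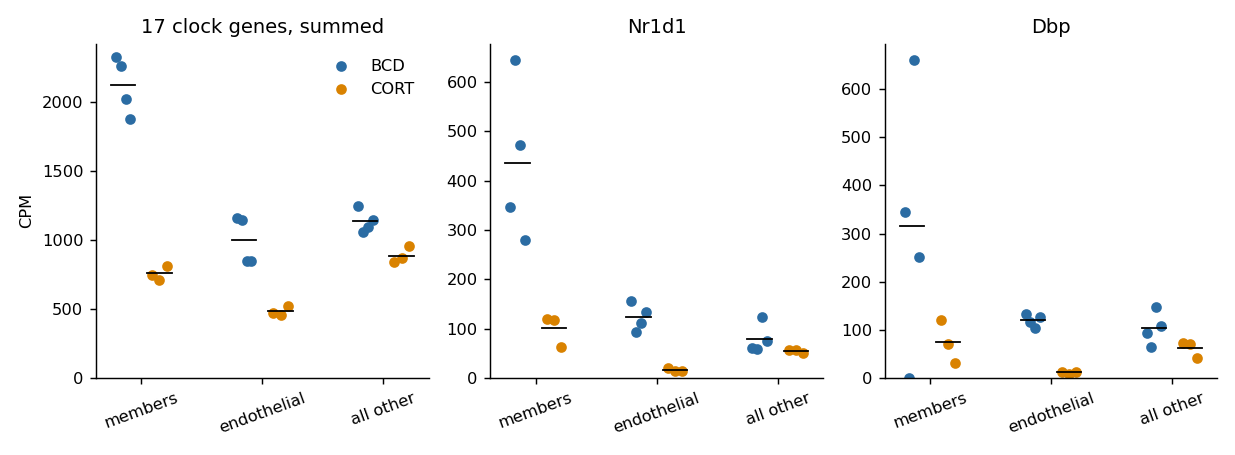
Summed CPM of 17 clock genes (left), Nr1d1 (middle) and Dbp (right) in members, endothelial barcodes and all other kept barcodes, with 1 point per mouse (4 BCD, 3 CORT) and black bars for means. In members the clock sum lies between 1874 and 2327 in BCD mice and between 708 and 814 in CORT mice, and it is lower in CORT mice in the other classes as well.

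Beside Nr1d1, several list genes had no overlap between the drinks for members, and none of them passed the threshold. Btg2, an immediate early gene that slows proliferation, was at 283, 0, 246 and 55.9 CPM in BCD and at 299, 496 and 939 in CORT mice (log2 fold change 1.48 ± 0.47 SE, adjusted p = 0.410, edgeR). Its log2 fold change ranged from 0.62 to 2.19 over the alternatives, with 0.93 without CORT/Ket 9971 and 2.19 without CORT/Sal 9969. Genes higher in CORT mice without overlap made up 3.71% of those tested, and among them were also Ifitm2 (adjusted p = 0.941, edgeR) and mt-Atp6 (adjusted p = 0.990, edgeR). Genes lower in CORT mice included Slc12a2, Itpr2 and Lama2, each of which leaned to the Kcnj8 side of the members. Slc12a2 was at 723, 2906, 661 and 671 in BCD and at 344, 543 and 376 in CORT mice (adjusted p = 0.895, edgeR), and the 2906 rested on the 3097 member UMIs of BCD/Ket 9946. Itpr2 and Lama2 had log2 fold changes of -1.09 ± 0.47 and -0.69 ± 0.47 SE (adjusted p = 0.941 and 0.989, edgeR). In the mice compared, the share of Acta2-side cells ran from 12% to 20% in BCD and from 8.70% to 29.6% in CORT mice. Its part in these values was not tested.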

How the data were processed

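Processed 10x single-cell matrices of UMI counts from the BLA were used as deposited. The file headers name Cell Ranger 3.0.2 and the submitters' processing notes name Seurat 3.1.1; the study's methods give mm9 as the genome, and prefrontal samples were not analysed here. No doublet caller was run; barcodes with more than 2 UMIs of other cell types were left out by the rule. The members and gene lists were chosen with earlier results of these data known. Every gene of the lists could be named, with the 15 genes of largest ratio on each side and the 15 of largest ratio to other barcodes. Endothelial barcodes held at least 4 UMIs of Cldn5 and Flt1 and at most 2 of other types, mural genes included.

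UMI sums per mouse were tested with edgeR 4.0.16 (TMM, filterByExpr, robust quasi-likelihood fit, Benjamini-Hochberg at 0.05) in R 4.3.3, with DESeq2 1.42.0 as an alternative, after tests on simulated data. Cell sums, not cells, were the replicates; groups came from the labels and each library is 1 mouse. Shares were compared by exact permutation over mice, and the exact intervals of shares and ratios were computed with scipy 1.17.1. Log2 ratios between the sides used a prior of 0.5 UMI. Gene positions matched 443 of 446 names on NCBIM37. Windows of Tagln, Myh11, Higd1b and Ndufa4l2 were not used here. Some results that the rules above would name are not reported here. Alternatives changed the normalization, low-count filter, rule, barcode filters and libraries.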

Additional observations from a re-analysis of the deposited data

Results flagged for a closer look

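In the 9 libraries with members, ketamine and saline mice stood in opposite order in the drinks for the share of members among kept barcodes. Ketamine minus saline was 1.36 percentage points in BCD mice (3 against 2) and -1.476 in CORT mice (3 against 1), with every ketamine mouse on its side of the saline mean. BCD/Ket 9946 (1.94%) nevertheless lay below BCD/Sal 9901 (2.59%), and the BCD difference was 0.265 without BCD/Sal 9947 and 2.46 without BCD/Sal 9901. With CORT/Sal 9970, which held 0 members, counted as 0%, the CORT difference was 0.625 (2.73% against 2.10%, 3 mice against 2). This setting was chosen after seeing the data, and with it the order was the same in both drinks. That library kept 2397 of its 2469 barcodes and held 5 endothelial barcodes, against 690 of 3082 and 110 in CORT/Sal 9969. Its share is thus over an unlike set of barcodes, and nothing is read from that order. For Acta2-side cells among the cells put on a side, ketamine minus saline was 10.88 percentage points in BCD mice (3 against 2) and -17.59 in CORT mice (2 against 1). The BCD value was 4.43 without BCD/Sal 9947, whose 0% is 1 cell, 3.02 with at least 3 UMIs for a side, 3.10 with at least 6 mural UMIs and -0.909 with at least 500 genes (2 against 1). Other settings made it larger. It was 17.3 without BCD/Sal 9901, 21.2 with at most 25% mitochondrial UMIs and 28.9 with at most 5% (3 against 1). Neither difference between the drinks was tested, and the CORT values rest on the single mouse 9969.

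Signal of the mural genes also lay outside the members. CORT/Sal 9970, which holds no member, had 1091 UMIs of the 9 mural genes over 862 of its kept barcodes, at 296 CPM, but only 1 barcode had as many as 4. It held 5 endothelial barcodes. In the other 9 libraries, 184 kept barcodes had at least 4 mural UMIs together with more than 2 UMIs of other cell types. Their median was 3492.5 UMIs, 15 of them mural and 25 of other types, and in 150 (81.5%) those of other types were mostly Cldn5 and Flt1.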

How the results depend on the processing

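The count of genes called stayed within 0 to 5 under all 69 alternatives. For BCD/Ket against BCD/Sal it was 1 with at least 10 or 20 members per library and with at least 6 mural UMIs (Snhg11 each time), 5 with at most 25% mitochondrial UMIs (Ptgds, Nnat, Snhg11, Ubap2 and Aebp1), and 0 to 1 when leaving out each mouse (Snhg11). For CORT/Ket against BCD/Ket it was 2 with at least 10 or 20 members (Btg2 and Dbp), 1 with at least 6 mural UMIs, and 0 to 2 when leaving out each mouse (Btg2 and Dbp without 9946, Fos and Ttr without CORT/Ket 9968). For ketamine against saline it was 2 with at most 25% mitochondrial UMIs (Ptgds and Ttr) and 0 to 0 when leaving out each mouse. For CORT against BCD it was 2 with no UMI of other types, 2 with at most 5% and 3 with at most 25% mitochondrial UMIs (Ptgds, Dbp and Ttr). It was 0 to 2 when leaving out each mouse (Dync1i2 and Slc1a2 without 9986). At 25%, Dbp had a log2 fold change of -2.45 with an adjusted p of 0.0485 (edgeR). Over its 14 alternatives the adjusted p ran from 0.0485 to 1.00, and the direction of Dbp, Nr1d1, Hlf and Btg2 held in each.

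Genes leaning to the Kcnj8 and Acta2 sides numbered 456 and 248 in mice with at least 5 cells of each side. Only BCD/Ket 9986 and CORT/Sal 9969 met that, so a gene had to agree in fewer mice. The counts were 128 and 94 with at least 50 UMIs, and 238 to 308 and 143 to 188 when leaving out each mouse.

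No alternative brought a share past the threshold, but differences changed sign. In percentage points, the Acta2-side share for CORT/Ket against BCD/Ket became 4.36 with at least 3 UMIs for a side, 2.48 with at least 6 mural UMIs and 0.197 with at least 500 genes. For ketamine against saline it became -3.78, -3.63 and -8.20 under the same settings, -1.26 with at most 25% mitochondrial UMIs, and -6.05 to 8.76 when leaving out each mouse. For CORT against BCD it became -15 and -3.56 with at most 5% and 25% mitochondrial UMIs and -0.941 to 9.53 when leaving out each mouse, and for BCD/Ket against BCD/Sal it went from 10.88 to -0.909 with at least 500 genes. The share of members for CORT/Ket against BCD/Ket became 0.0157 with no UMI of other types, 0.142 with at most 25% mitochondrial UMIs and -0.618 to 0.494 when leaving out each mouse; for ketamine against saline it became -0.0861 with at least 500 genes and -0.606 to 1.30 when leaving out each mouse. Members per 100 endothelial barcodes for BCD/Ket against BCD/Sal became -0.456 with at most 25% mitochondrial UMIs and -10.0 to 12.3 when leaving out each mouse, and, for ketamine against saline, became 3.44 with CORT/Sal 9970 counted (added after seeing the data) and ranged from -8.73 to 3.20 when leaving out each mouse. It ranged from -0.131 to 9.20 for CORT/Ket against BCD/Ket. The cause of these changes was not tested.

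The limits are the 27 Acta2-side cells, the single usable mouse in BCD/Sal and in CORT/Sal, and libraries with 1, 2 and 7 members.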
